A study of Mus musculus with 4 samples.

Results

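Globose basal cells (GBC) of the mouse main olfactory epithelium were taken as the cells that the deposited cell table labels GBC after filtering. They numbered 202 of the 15859 retained cells, which in turn came from 21809 cell barcodes. The 4 mice held 86, 29, 24 and 63 GBC. These were 1.92% (95% Wilson interval, counting error only, 1.56 to 2.36), 0.781% (0.545 to 1.12), 0.798% (0.537 to 1.19) and 1.35% (1.06 to 1.73) of the retained cells of mice 1 to 4, with a mean of 1.21% ± 0.540 (SD, n = 4). Mice 1 and 4 thus held the larger shares, and the intervals of mice 2 and 3 lay below that of mouse 1. The study dissociated the main olfactory epithelium of 4 male C57BL/6 mice (C57BL/6J in its methods) aged 8 weeks with papain, sorted nucleated live cells by Hoechst and DRAQ7 staining, and made 1 droplet library per mouse with the 10x Genomics 3′ chemistry. All mice belonged to 1 group with no treatment and no stated genetic change, so the comparisons here are between cell types within mice and the mouse is the replicate. The neighbours of the GBC in the lineage served for comparison: 284 immediate neuronal precursors (INP) and 2 clusters of horizontal basal cells, HBC1 with 210 cells and HBC2 with 544 cells.

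The olfactory epithelium replaces its sensory neurons throughout life. Globose basal cells are the dividing progenitors that do most of this work: transit-amplifying cells give rise to Neurog1- and Neurod1-expressing precursors, which leave the cell cycle and become immature neurons, while horizontal basal cells form a mostly quiescent reserve beneath them that is marked by keratins 5 and 14 and the transcription factor p63. Globose basal cells can also give rise to non-neuronal cells, among them microvillar cells, and the receptor tyrosine kinase Kit has been used to mark the progenitors of the neuronal lineage.

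Levels are given as unique molecular identifiers (UMIs, one per captured molecule) per 10000 UMIs of the summed counts of all cells of a type in a mouse. They come from transcript 3′ ends and compare 1 gene between cell types. A gene was called when the quasi-likelihood test of edgeR on the 4 sums per type gave a Benjamini-Hochberg adjusted p under 0.05 over all 8470 genes tested and the log2 difference was at least 1 in size. The authors formed the cell types from the expression of these same cells. A call therefore sets a difference against the spread between mice and is not a test of whether the types differ. By this rule 30.1% of all genes tested were called between GBC and INP (17.5% higher and 12.6% lower in GBC), 36.8% between GBC and HBC1 (17.4% and 19.4%) and 33.1% between GBC and HBC2 (14% and 19.1%). Against all 3 types at once, 3.58% of the genes tested were higher in GBC and 1.26% were lower. Counts of called list members below are to be read beside these shares. A few calls in a short list can lie at or under them. The median log2 difference over all genes tested was 0.06 against INP, 0.05 against HBC1 and −0.00 against HBC2.

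The 4 libraries held 4746 to 6003 barcodes and 23157467 to 32382702 UMIs, and pairs of libraries shared 54 barcode sequences, none of them as GBC in both. The GBC were the deepest of the 4 types. Their median UMI count per cell was 11228.5, 5760, 10683.5 and 9462 in mice 1 to 4, a mean of 9284 against 6946 in INP, 4513 in HBC1 and 6732 in HBC2. GBC were above each of the other types in 4 of 4 mice, which in an exact two-sided permutation test over the paired differences of 4 mice is the smallest p this design allows, adjusted p = 0.141 over 9 tests. The mitochondrial share had a mean of 1.10% in GBC, 0.928% in INP, 2.21% in HBC1 and 2.07% in HBC2.

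A second deposited label split the 202 cells. A preliminary clustering of all barcodes is in the same table, and 153 of the 202 cells (66, 21, 16 and 50 in mice 1 to 4) were GBC in both. Of the others, 26 had been placed with the horizontal basal cells, 12 and 5 with the microvillar types Mv1 and Mv2, 4 with sustentacular cells and 2 with neurons. The 26 cells shared with the horizontal basal cells carried the collagen genes Col1a1 at 13.6 and Col1a2 at 13.8 UMIs per 10000, the proteoglycan gene Dcn at 30.1 and the immediate early gene Fos at 45.3, where the 153 cells had 0, 0.00513, 1.89 and 3.80. Scrublet, a caller of droplets with 2 cells, gave 36 of the 202 GBC (17.8%) a score among the highest 4% of their library, against 2.46% of INP, 5.24% of HBC1 and 8.27% of HBC2. The fits were therefore repeated without cells of high doublet score and with the 153 cells alone. Of the differences of named genes that were called, 9 of 79 against INP, 17 of 80 against HBC1 and 35 of 88 against HBC2 moved by more than 1.5-fold without cells of high doublet score, the 35 against HBC2 all to larger sizes, and 77, 78 and 85 were still called. In the 153 cells 12 of 80, 12 of 81 and 14 of 88 moved by as much, and 75, 80 and 88 were still called.

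Kit and Mki67 were higher in GBC than in the 3 neighbouring types, and Hes6 than in both HBC types. Kit, which encodes the receptor of stem cell factor (chromosome 5, 75574916 to 75656722, GRCm38), had levels of 0.924, 0.746, 1.05 and 1.51 in the GBC of mice 1 to 4 and of 0.0327, 0.0545, 0.0864 and 0.0182 in INP. No mouse overlapped, and the log2 difference was 4.50 (SE 0.38, adjusted p = 6.47e-09, edgeR) over INP and 3.21 (SE 0.28) over HBC2. HBC1 held 1 Kit UMI against 246 in GBC, a ratio of 113 with a counting interval of 20.1 to 4491. Kit was not particular to the neuronal lineage, since its mean was 0.994 ± 0.282 in Mv1 and 1.13 ± 0.183 in Mv2 cells (SD, n = 4). Mast cells and melanocytes also use Kit, and of their 9 markers 7 were at 0 in GBC, while the sum of all 9 reached at most 0.0318.

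Mki67, which encodes the proliferation antigen Ki-67 (chromosome 7, 135689784 to 135716361), had levels of 3.46, 2.65, 4.68 and 2.82 in GBC and at most 0.218 in any INP, HBC1 or HBC2 sum. Its log2 difference was 5.67 (SE 0.29) over INP and 5.21 (SE 0.25) over HBC2, where it was 8.01 without cells of high doublet score, and HBC1 held 1 UMI against 759 in GBC, a ratio of 349 (62.5 to 13819). Mki67 thus stood apart in all 4 mice. Hes6, a Hes-family factor that promotes neuronal differentiation (chromosome 1, 91411483 to 91414038), had levels of 14.9, 5.84, 11.6 and 17.8 in GBC and of 5.75, 6.71, 7.14 and 6.02 in INP. Mouse 2 lay within the range of INP, and the log2 difference to INP of 0.88 (SE 0.20) missed the size needed for a call. It was 1.17 without mouse 2, 1.20 without cells of high doublet score and 1.10 in the 153 cells, and was called in each of these. Over HBC1 and HBC2 Hes6 was higher by 5.10 (SE 0.29) and 4.29 (SE 0.23).

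**Figure D1:**
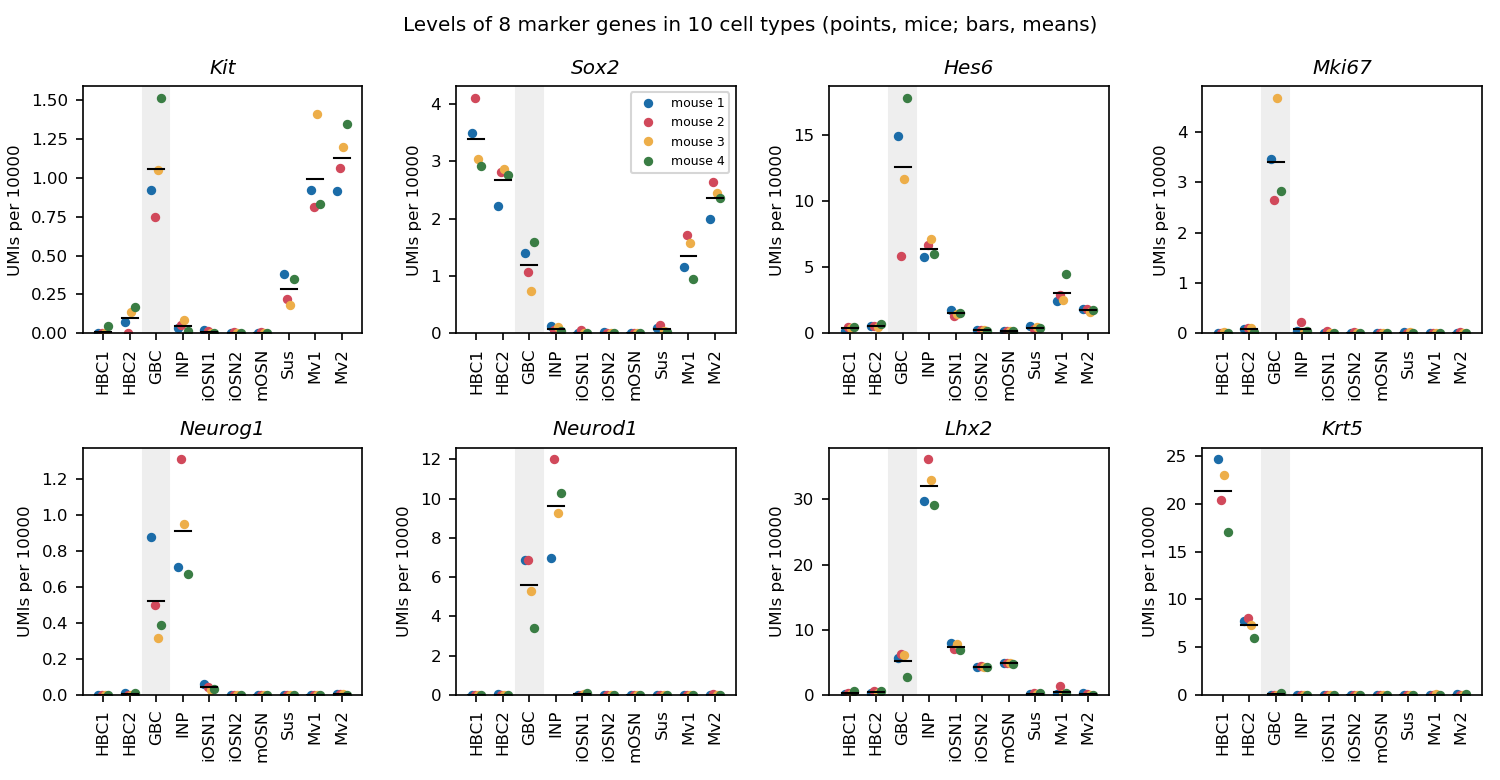
Levels of 8 marker genes (vertical axes, UMIs per 10000 of the summed counts) in 10 cell types (horizontal axes), with a point per mouse and a bar at the mean of 4 mice. GBC, on the grey band, hold the Mki67 level, share Kit with the Mv1 and Mv2 cells, and lie between HBC and INP for Lhx2, which has a mean of 5.22 in GBC and 32.0 in INP.

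Shares of cells with a UMI were compared after each cell was thinned to 5000 UMIs, which kept 156 GBC (69, 18, 18 and 51) and left out 46, and likewise kept 215 INP, 93 HBC1, 393 HBC2 and 4983 mature olfactory sensory neurons (mOSN) and left out 69, 117, 151 and 5536. Kit was found in 26.2% ± 7.37 of GBC (SD, n = 4, and 40.7% with all UMIs), in 2.23% ± 1.77 of INP and in 0.157% ± 0.154 of mOSN. The mOSN shares are given for comparison, and the part of free RNA in them was not tested. Mki67 was found in 45.0% ± 4.54 of GBC (44.5% with all UMIs), 1.28% ± 1.57 of INP and 0.298% ± 0.148 of mOSN. Hes6 was found in 81.1% ± 13.7 of GBC (77.0% with all UMIs), 86.7% ± 9.14 of INP and 8.64% ± 0.786 of mOSN. Most GBC thus held Hes6, as INP did, and a smaller share held Kit or Mki67.

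Genes of mitosis were higher in GBC than in each of the neighbouring types. All 26 genes of a list for the G2 phase and mitosis were tested, and all 26 were higher than in INP (17.5% of all genes tested), than in HBC1 (17.4%) and than in HBC2 (14%), and so than in all 3 at once (3.58%). A gene that is high in GBC alone can pass the filter on low counts through the GBC sums. Mki67, a member, was also a GBC marker from the outset. These counts therefore describe the list and are not a test, as also for the other lists below. The median log2 difference was 4.69 over INP, 7.42 over HBC1 and 5.52 over HBC2. Of these genes, 10 had no UMI in HBC1, and with them set to the limit of 3 counts over the group the median over HBC1 was 6.03. Without cells of high doublet score the median over HBC2 was 7.03. The summed level of the list was 93.5, 77.5, 95.9 and 91.8 UMIs per 10000 in the GBC of mice 1 to 4, and its mean was 89.7 ± 8.29 against 5.39 ± 0.926 in INP, 2.12 ± 0.443 in HBC1 and 3.54 ± 0.545 in HBC2. The 4 GBC sums lay close together and far above every other sum.

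The members with the highest level in GBC were Hmgb2, Ube2c, Top2a, Cenpf and Cks2. Hmgb2, a chromatin protein of dividing cells, had levels of 33.9, 29.4, 29.9 and 30.6 and a log2 difference of 3.46 (SE 0.12) over INP, 4.11 (SE 0.13) over HBC1 and 3.52 (SE 0.12) over HBC2. Ube2c, the ubiquitin-conjugating enzyme of the anaphase-promoting complex, had levels of 8.27, 7.58, 9.10 and 8.83 and log2 differences of 3.84 (SE 0.25), 7.66 (SE 0.44) and 6.77 (SE 0.31). Top2a, the DNA topoisomerase that untangles sister chromatids, had levels of 8.28, 5.59, 7.26 and 6.21 and differences of 5.53 (SE 0.28), 7.46 (SE 0.40) and 5.50 (SE 0.25). Without cells of high doublet score the differences of Ube2c and Top2a over HBC2 were 9.31 and 7.16. In each of these genes the lowest mouse of GBC lay above the highest mouse of the other types. Cenpf, a kinetochore protein, had a mean of 5.62 ± 0.914 and no UMI in HBC1, where GBC were at least 199-fold higher against a floor of 3 counts over the group. Cdk1, the kinase that drives entry into mitosis, had levels of 3.12, 1.74, 2.96 and 3.31 against a mean of 0.0200 in INP, a log2 difference of 6.67 (SE 0.34).

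Genes of G2 and mitosis are known to share a promoter element, the cell-cycle homology region, with upstream CCAAT boxes, so the promoters of 4 members that hold these letters are shown here. Each is 150 bases of the RefSeq promoter window on GRCm38.p6, from 120 bases before to 30 bases after the start site, read 5′ to 3′ on the gene's strand. Capitals mark TTTGAA, the core of the homology region, and CCAAT, on either strand, so that a match on the opposite strand reads TTCAAA or ATTGG. The windows are chr2:164769809-164769958 (+) for Ube2c, chr11:99024160-99024309 (−) for Top2a, chr10:69352883-69353032 (−) for Cdk1 and chr9:70421525-70421674 (−) for Ccnb2, which encodes cyclin B2.
Ube2c: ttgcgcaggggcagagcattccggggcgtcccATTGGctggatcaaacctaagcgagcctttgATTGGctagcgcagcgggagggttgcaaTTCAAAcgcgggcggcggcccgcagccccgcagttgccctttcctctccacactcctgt
Top2a: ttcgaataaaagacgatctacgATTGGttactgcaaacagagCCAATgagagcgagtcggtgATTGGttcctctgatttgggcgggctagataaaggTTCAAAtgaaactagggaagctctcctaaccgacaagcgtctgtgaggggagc
Cdk1: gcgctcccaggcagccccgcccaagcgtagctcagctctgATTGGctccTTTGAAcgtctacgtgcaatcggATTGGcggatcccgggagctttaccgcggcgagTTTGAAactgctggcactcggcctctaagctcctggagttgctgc
Ccnb2: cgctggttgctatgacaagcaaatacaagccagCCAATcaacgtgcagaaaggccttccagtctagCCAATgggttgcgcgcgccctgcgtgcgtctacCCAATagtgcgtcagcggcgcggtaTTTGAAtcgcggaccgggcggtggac
The 4 were chosen for holding both motifs, and the same 150 bases of Birc5, another member, hold neither. In the whole windows of 300 bases, TTTGAA was present on either strand for 17 of the 23 G2 and mitosis genes that have a window (73.9%), against 20.2% of 27025 genes, and CCAAT for 19 of 23 (82.6%), against 41.1%. CCAAT was common in other lists described below too. It was present for 14 of 21 S-phase genes (66.7%), 8 of 12 proneural genes (66.7%) and 4 of 7 progenitor genes (57.1%). Matches to different motifs were counted separately. They are descriptions of the letters and were not tested as binding sites.

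Genes of DNA replication were also higher, by less. Of 26 genes in an S-phase list, 18 passed the filter on low counts. GBC were higher for 17 of the 18 than INP, for 16 than HBC1 and for 18 than HBC2, with none lower, and the remaining 8 were not tested. The median log2 difference was 2.70, 2.96 and 2.79, and 3.45 over HBC2 without cells of high doublet score. The summed level of the list was 26.0, 20.5, 14.4 and 19.3 in the GBC of mice 1 to 4, against means of 3.83 ± 0.373 in INP, 3.44 ± 0.334 in HBC1 and 3.13 ± 0.476 in HBC2. Mouse 3 had the lowest and mouse 1 the highest sum, and all 4 lay above the other types.

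Pcna, the sliding clamp of DNA polymerase, had levels of 2.82, 2.07, 1.05 and 1.92 in GBC and a mean of 0.500 ± 0.143 in INP, with log2 differences of 2.00 (SE 0.22) over INP, 1.32 (SE 0.23) over HBC1 and 1.56 (SE 0.19) over HBC2. Slbp, which binds histone mRNAs, was higher by 1.93 (SE 0.21), 1.78 (SE 0.24) and 1.38 (SE 0.18), the last of which was 0.92 and not called with cells thinned to 5000 UMIs. Tyms, the enzyme that makes thymidylate, was higher by 2.70 (SE 0.33), 2.75 (SE 0.40) and 3.19 (SE 0.31). These members were detectable in INP, HBC1 and HBC2 too. Mcm7, a subunit of the replicative helicase, was the gene of the list not called against INP, at 0.98 (SE 0.21).

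Promoters of replication genes are known for E2F sites, and 2 helicase subunits with such letters are shown in the same way, with GCGGGAA or GCGCGAA alone in capitals. The windows are chr1:20820283-20820432 (−) for Mcm3 and chr1:128359676-128359825 (−) for Mcm6.
Mcm3: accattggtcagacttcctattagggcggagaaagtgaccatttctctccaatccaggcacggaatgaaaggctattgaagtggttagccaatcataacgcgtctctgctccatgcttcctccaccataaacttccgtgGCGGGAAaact
Mcm6: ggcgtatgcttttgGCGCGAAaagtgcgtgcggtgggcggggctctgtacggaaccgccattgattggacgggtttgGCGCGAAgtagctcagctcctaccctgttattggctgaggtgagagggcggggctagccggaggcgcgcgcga
In the whole windows GCGGGAA was present for 9 of the 21 S-phase genes with a window (42.9%) against 5.29% of all genes, and GCGCGAA for 6 (28.6%) against 1.81%. Of the G2 and mitosis genes, 0 of 23 had GCGGGAA and 1 had GCGCGAA, while TTTGAA was present for 4 of the 21 S-phase genes and CCAAT for 14. In GBC, Mcm3 had levels of 1.25, 0.580, 0.573 and 0.920, and Mcm6 of 0.914, 0.787, 0.605 and 0.858, each above all sums of the other 3 types.

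Not all GBC carried these transcripts. Among the 156 GBC thinned to 5000 UMIs, 97 had at least 10 UMIs of the 26 G2 and mitosis genes, namely 66.7%, 50%, 55.6% and 62.7% in mice 1 to 4 (mean 58.7% ± 7.43, SD, n = 4). The same was true of 7 of 215 INP, 4 of 393 HBC2, 0 of 93 HBC1, which allows a share of up to 3.23%, and 0 of 4983 mOSN. The count of 10 was chosen after the values were seen, but few cells lay near it, since only 4 GBC had 7 to 13 UMIs. The median over GBC was 32 UMIs and the highest value 166. At least 10 UMIs of the S-phase genes were found in 56 of the 156 GBC (31.8% ± 10.8), and there 33 cells had 7 to 13 UMIs, so this share depends on the count that is asked for.

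**Figure D2:**
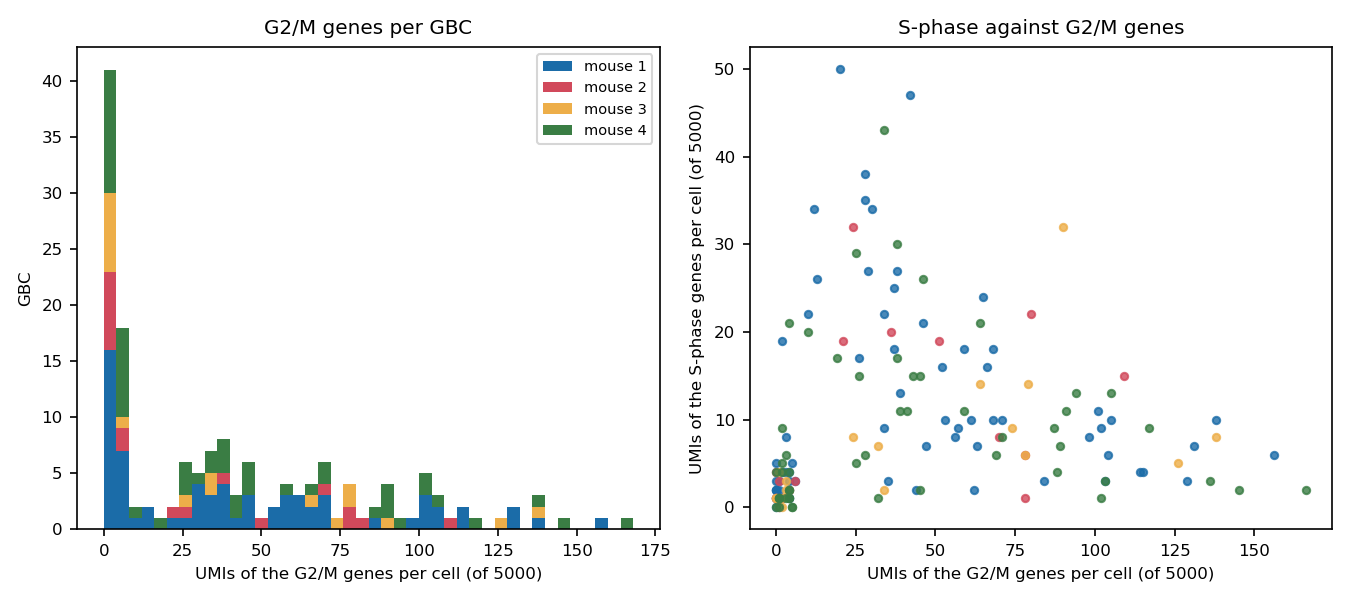
UMIs per cell of 26 G2/M genes (left, number of GBC per bin of 4 UMIs, stacked by mouse) and S-phase against G2/M UMIs per cell (right, a point per GBC coloured by mouse), for 156 GBC thinned to 5000 UMIs each. A group of cells near 0 is separated from 97 cells with 10 or more G2/M UMIs, and all 4 mice contribute to both.

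Cyclins and their inhibitors differed from member to member. Of 15 genes, 12 were tested, and 5 were higher and 1 lower than in INP, 5 higher and 2 lower than in HBC1, and 4 higher and 3 lower than in HBC2. Over all genes tested, 17.5% were higher and 12.6% lower than in INP, 17.4% and 19.4% for HBC1, and 14% and 19.1% for HBC2. The members called lower than in INP and HBC1 were thus no more than these shares. Ccnd1, the cyclin D1 of the G1 phase (chromosome 7, 144929931 to 144939925), had levels of 7.90, 2.11, 7.19 and 9.58 in GBC and of 0.0436, 0.0545, 0.0173 and 0.0364 in INP, and was higher by 7.46 (SE 0.41) over INP, 2.58 (SE 0.27) over HBC1 and 1.58 (SE 0.23) over HBC2. Mouse 2 was the lowest and lay within the range of HBC2, which was 1.61 to 2.23. Ccnd2, the related cyclin D2, went the other way with respect to the horizontal basal cells. Its levels in GBC were 0.264, 0.207, 0.382 and 0.0780, against means of 9.16 ± 1.61 in HBC1 and 3.67 ± 0.471 in HBC2, and it was lower by log2 differences of −5.37 (SE 0.22) and −4.14 (SE 0.22). Over INP Ccnd2 was called higher by 3.44 (SE 0.53), but in the 153 cells of both clusterings the difference was 0.21 and was not called.

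Cdk4, the partner kinase of the D cyclins, was higher than in HBC1 and HBC2 by 2.49 (SE 0.17) and 2.51 (SE 0.15), while its mean of 5.93 ± 0.892 was near the 4.06 ± 0.155 of INP (0.50, SE 0.14, not called). Cdkn1c, which encodes the inhibitor p57, was called higher in GBC than in all 3 types, by 2.05 (SE 0.27), 2.01 (SE 0.30) and 2.72 (SE 0.26). Without cells of high doublet score the Cdkn1c differences were 1.60, 1.51 and 2.14 and were still called. Of its 503 UMIs, 21.5% came from 1 cell of mouse 4. Among thinned cells of the GBC subsets described below, its level was 9.79 in those with Foxi1 or Ascl3. It was 1.40 in those with Neurog1 or Neurod1, 0.373 in those that met no rule and 1 in those with collagen genes. The higher summed level of Cdkn1c was thus not spread evenly over GBC. Btg2, an antiproliferative gene, had a mean of 5.73 and was called against HBC2 alone, where it was lower by −1.10 (SE 0.16), or −0.96 and not called without mouse 3. Without cells of high doublet score it was also called lower than HBC1, at −1.04.

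Chromatin genes and genes of ribosome assembly were higher for part of their members. Of 22 chromatin genes, 21 were tested, and 10 were higher than in all 3 types, against 3.58% of all genes tested. Hmgb2, 1 of the 10, is also in the G2 and mitosis list, and Ezh2 is also in the progenitor list below. GBC were higher for 10 and lower for 2 against INP, higher for 13 and lower for 0 against HBC1, and higher for 15 and lower for 1 against HBC2, with median log2 differences of 0.96, 2.02 and 1.96. H2az1, a replication-independent histone H2A variant, had levels of 48.6, 33.6, 33.7 and 46.7 in GBC and a mean of 12.0 ± 0.611 in INP, and was higher by 1.70 (SE 0.13), 3.65 (SE 0.14) and 3.16 (SE 0.13). Hmgb1 and Hmgn2, which bind DNA and nucleosomes, were higher than INP by 1.21 (SE 0.11) and 2.26 (SE 0.16). Ezh2, the methyltransferase of Polycomb complex 2, had nearly equal means of 4.11 in GBC and 4.08 in INP (−0.03, SE 0.17) and was higher than HBC1 by 4.17 (SE 0.27) and HBC2 by 3.98 (SE 0.21).

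Of 17 genes of ribosome assembly, 15 were tested. GBC were higher for 9, 8 and 10 of them than INP, HBC1 and HBC2 and lower for none, with medians of 1.03, 1.20 and 1.06. Npm1, the nucleolar chaperone nucleophosmin, had levels of 19.5, 19.2, 21.3 and 18.9 in GBC against means of 5.98, 6.55 and 6.32, and was higher by 1.68 (SE 0.13), 1.55 (SE 0.13) and 1.52 (SE 0.12). Ncl, which encodes nucleolin, had a mean of 11.8 and was called over HBC2 alone at 1.06 (SE 0.12), a call that was lost at 0.89 without cells of high doublet score, with 0.56 (SE 0.12) to INP and 0.84 (SE 0.13) to HBC1.

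Among 8 progenitor genes, 7 were tested, and GBC were higher for 4 and lower for none against INP, and higher for 5 and lower for 1 against both HBC1 and HBC2. All genes tested gave shares of 17.5% higher against INP, 17.4% higher and 19.4% lower against HBC1, and 14% and 19.1% against HBC2. The counts of 1 lower member were thus no more than these shares. The median log2 difference was 1.71, 4.17 and 3.21, and 3.67 over HBC1 with 1 member at its limit. Sox2 and Pax6, transcription factors of the sensory placode that are kept in basal cells, were both higher than in INP. Neither was particular to basal cells, since Sox2 had means of 1.35 in Mv1 and 2.36 in Mv2 cells, and Pax6 of 1.46 and 1.74. Sox2 had levels of 1.40, 1.08, 0.732 and 1.59 in GBC, above INP by 3.66 (SE 0.31) and below HBC1 and HBC2 by log2 differences of −1.48 (SE 0.20) and −1.23 (SE 0.19), the second not called without mouse 3. Pax6 had a mean of 1.18 ± 0.290, above INP by 4.45 (SE 0.40), and was not called against HBC1 (−0.92, SE 0.23) or HBC2 (−0.15, SE 0.22), although with the size factors of DESeq2 it just passed the size needed for a call as lower than HBC1. Tead2, the DNA-binding partner of the Hippo effector YAP, was higher than all 3 by 1.71 (SE 0.26), 3.67 (SE 0.41) and 5.59 (SE 0.36).

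In the summed counts, the genes that lead into the neuronal lineage put GBC between the horizontal basal cells and INP. A summed level is an average over cells, and GBC differed among themselves, as the subsets below show for Lhx2. Of 14 proneural and differentiation factors, 13 were tested. GBC were higher for 10 than HBC1 and for 11 than HBC2 and lower for none, with medians of 2.71 and 2.85 (5.74 and 4.02 without cells of high doublet score), whereas against INP 1 was higher and 9 were lower, with a median of −2.18. Sox11, a factor of early neurons, had levels of 22.5, 18.1, 13.8 and 16.8 in GBC and a mean of 58.4 ± 3.72 in INP, a log2 difference of −1.77 (SE 0.28), and was higher than HBC1 and HBC2 by 3.37 (SE 0.33) and 4.53 (SE 0.33). Lhx2, the homeodomain factor needed by olfactory neurons, had levels of 5.72, 6.21, 6.17 and 2.78 in GBC and was lower than in INP by a log2 difference of −2.67 (SE 0.25). Ebf1, which acts with it in these neurons, was lower by −2.18 (SE 0.32).

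Neurod1 and Neurog1, the proneural genes of the step from GBC to INP, were not called against INP. Neurod1 had levels of 6.85, 6.88, 5.31 and 3.43 in GBC and of 6.97, 12.0, 9.27 and 10.3 in INP, so that every mouse was lower in GBC, but the log2 difference of −0.84 (SE 0.21) was under the size needed for a call. It had no UMI in HBC1, against which GBC were at least 196-fold higher, and was higher than HBC2 by 8.58 (SE 0.40). Neurog1 (chromosome 13, 56250478 to 56252163) had levels of 0.877, 0.497, 0.318 and 0.390 in GBC and of 0.708, 1.31, 0.951 and 0.673 in INP, which overlap, with a log2 difference of −0.67 (SE 0.27, adjusted p = 0.0504, edgeR), which was −1.13 and called without mouse 1. Sox4 was the member called higher than INP, at 1.05 (SE 0.18), and was not called without mouse 2 (0.95) or mouse 3 (0.97).

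Genes of immature neurons were lower in GBC than in INP. The 13 genes summed to 62.9, 54.8, 44.5 and 46.0 in GBC and 216 ± 5.13 in INP, and 12 of the 13 were called lower and none higher, with a median of −3.30. Stmn2, a microtubule regulator of growing axons, had levels of 2.11, 1.62, 0.827 and 1.09 in GBC and a mean of 40.9 ± 1.49 in INP (−4.94, SE 0.46). Tubb3, the neuronal tubulin, had levels of 8.49, 8.70, 3.88 and 4.30 and was lower by a log2 difference of −2.07 (SE 0.32). Stmn1, which dividing cells also express, was the member not called, at −0.67 (SE 0.31). Against HBC1 6 members were higher and 1 lower, and against HBC2 7 and 1, with medians of 1.13 and 1.52. Without cells of high doublet score 12 were higher than in HBC1 and the median was 3.94. The summed level of the list in HBC1 was 2.10 and 3.65 in mice 1 and 3 and 18.3 and 20.1 in mice 2 and 4, and the part of neuronal RNA in HBC1 droplets was not tested.

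Genes of Notch signalling, by which neighbouring cells hold each other back from differentiation, split by the type compared. Of 17, 11 were tested. Against INP 7 were higher and none lower, with a median of 1.92. Against HBC1 3 were higher and 7 lower and against HBC2 3 higher and 6 lower, with medians of −1.45 and −1.18. The shares over all genes tested were 17.5% higher and 12.6% lower against INP, 17.4% and 19.4% against HBC1, and 14% and 19.1% against HBC2. The counts of 3 higher members stood closer to these shares than those of 7 and 6 lower members. The ligands Jag1, Jag2 and Dll1 all passed the filter and were all lower than in both HBC types, by log2 differences of −1.71 (SE 0.31), −3.67 (SE 0.29) and −2.67 (SE 0.36) against HBC1, at GBC means of 0.189, 0.200 and 0.0881. The receptor Notch1 had a mean of 0.773, higher than INP by 1.11 (SE 0.25) and lower than HBC1 by −1.09 (SE 0.22), a call that was lost without mouse 3 (−0.81) and without cells of high doublet score (−0.91). Of the targets, Hes1 had levels of 0.971, 0.456, 0.859 and 1.01 in GBC, a mean of 0.0314 in INP and of 6.79 in HBC1, and its log2 differences were 4.37 (SE 0.33), −3.03 (SE 0.17) and −2.72 (SE 0.17). The target Hes5, which did not pass the filter, had levels of 0.603, 0.0829, 0.0636 and 0.343 in GBC, which overlapped the 0 to 0.131 of INP, and 90 UMIs in GBC against 0 in HBC1 and 1 in HBC2. With no filter it was called higher than in all 3 types. The ligand Dll4 had 19 UMIs in the GBC of mice 1 and 2 and none in mice 3 and 4, and with no filter was called higher than in both HBC types. Mfng, a glycosyltransferase that modifies Notch, stood near its level in INP: the levels of 3.54, 2.98, 1.72 and 1.65 in GBC overlapped the 2.12 to 3.98 of INP, it was higher than HBC2 by 7.44 (SE 0.40), and HBC1 held 1 UMI against 608 in GBC, a ratio of 279.9 (50.0 to 11074).

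Of 14 Wnt pathway genes, 9 were tested, and GBC were higher for 4 than INP, higher for 1 and lower for 4 than HBC1, and higher for 1 and lower for 3 than HBC2, with medians of 1.28, −0.72 and 0.32. Over all genes tested, 17.4% were higher and 19.4% lower than in HBC1, and 14% and 19.1% against HBC2. The counts of 1 higher member were thus no more than these shares. In the 153 cells 3 of the 9 Wnt genes were higher than INP and the median was 0.59. Ctnnb1, which encodes β-catenin, had a mean of 3.32 and was called in no comparison. Tcf7l2, a transcription factor that binds β-catenin, was higher than INP by 3.99 (SE 0.33) and lower than HBC1 and HBC2 by −1.46 (SE 0.19) and −1.04 (SE 0.17), the second not called without mouse 3 (−0.94) and neither called with cells thinned to 5000 UMIs. Lgr5, an R-spondin receptor that marks stem cells in other epithelia, had levels of 0.264, 0.0829, 0.414 and 0.421 in GBC and 70 UMIs in all, and did not pass the filter on low counts. With no filter it was called higher than INP by 3.46 (SE 0.50) and than HBC1 by 2.44 (SE 0.53), and was not called against HBC2 (0.65, SE 0.31).

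**Figure D3:**
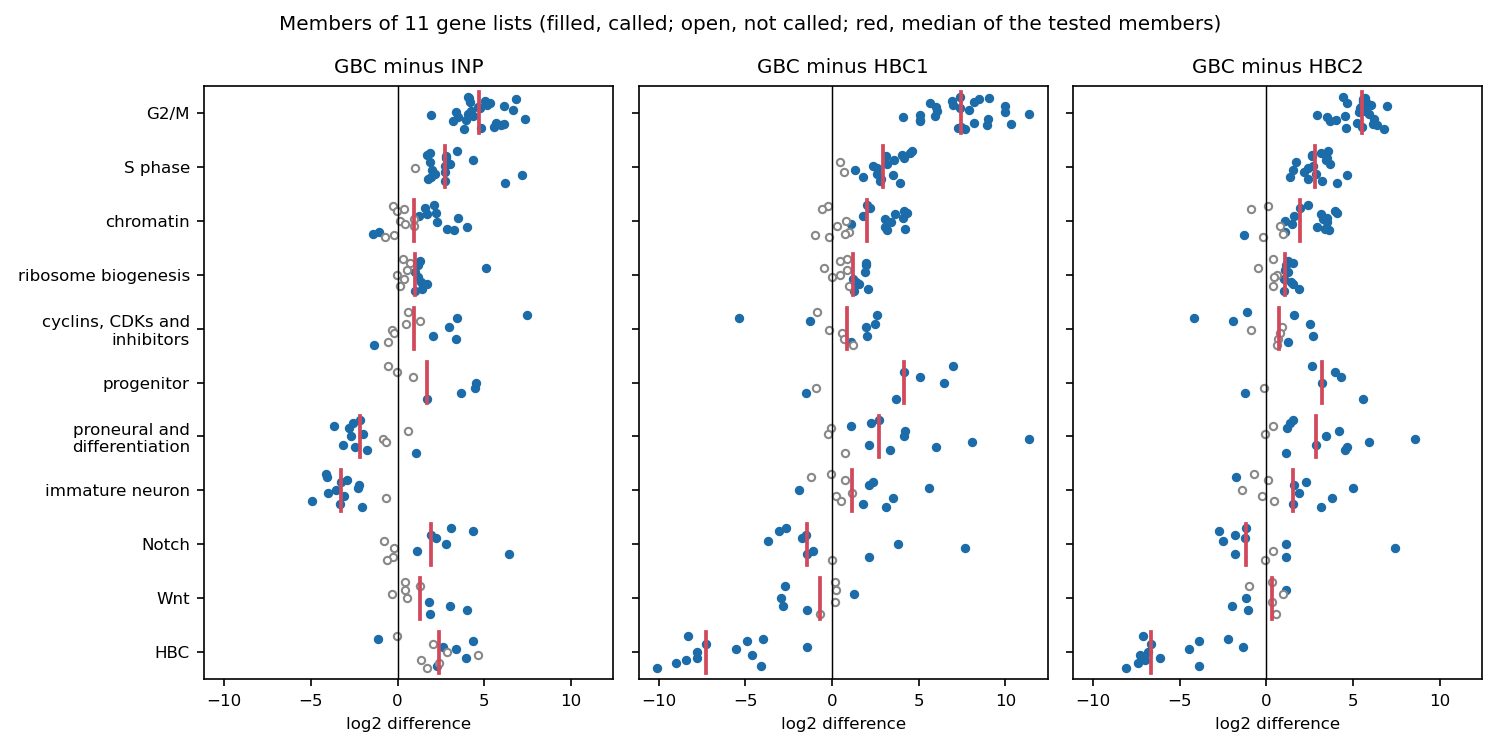
Log2 differences between GBC and INP, HBC1 and HBC2 (horizontal axes) for the tested members of 11 gene lists (a row per list, a point per gene, filled where called), with the median in red. The G2/M and S-phase lists lie to the right in all 3 panels, and the list of cyclins and inhibitors has members on either side of 0. The medians of the proneural and immature neuron lists lie to the left of 0 only in the panel for INP. The HBC list has medians of −7.26 and −6.66 in the panels for HBC1 and HBC2.

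Genes of horizontal basal cells were far lower in GBC. Of 14, 13 were tested and all 13 were lower than in HBC1 and in HBC2, with medians of −7.26 and −6.66 (−8.77 and −8.13 in the 153 cells). Krt5, a basal keratin, had levels of 0.0283, 0, 0 and 0.172 in GBC against means of 21.3 ± 3.31 and 7.28 ± 0.948 (−8.45, SE 0.36, and −6.98, SE 0.37). Trp63, which encodes p63, had 1 UMI in all GBC. Dst and Itga6, which anchor basal cells to their matrix, kept means of 0.646 and 0.337 and were lower than in HBC1 by −3.96 (SE 0.21) and −1.45 (SE 0.23). Against INP, in which 4 of the tested members had no UMI, 5 were called higher and 1 lower with a median of 2.40 (1.98 with those 4 at their limit). In the 153 cells of both clusterings, 3 were higher and 2 lower and the median was 0.05.

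Markers of other cell types were found at low levels. Counts of called genes here are to be read beside the shares over all genes tested. These were 17.5% higher and 12.6% lower than in INP, 17.4% and 19.4% for HBC1, and 14% and 19.1% for HBC2. The 7 sustentacular genes summed to 2.72 ± 1.45 in GBC, 0.345 ± 0.0573 in INP and 137 ± 44.8 in HBC2, so that 6 were called higher than in INP and all 7 lower than in HBC2, while against HBC1 1 was higher and 4 lower. The 8 genes of mature neurons summed to 3.26, 1.28, 8.11 and 7.99 in the GBC of mice 1 to 4, and none of the 7 tested was higher than in any of the 3 types, while 2, 6 and 7 were lower than in INP, HBC1 and HBC2. Without cells of high doublet score 6 were tested, and 3, 0 and 5 were lower, while in the 153 cells 6, 7 and 7 of 7 were lower. Omp, which defines mature neurons, had a mean of 1.18 in GBC and 3.21 in HBC1. The 6 gland genes summed to 1.74, 8.20, 1.53 and 1.39. Of these 3 were tested, all called higher than in INP, with 1 lower and 0 higher than in HBC1 and 2 lower and 1 higher than in HBC2. One of the 3, Lyz2, had 75.6% of its UMIs in 1 cell of mouse 2, and its difference over INP of 3.97 (SE 1.45) was 1.91 and not called in the 153 cells. Sox9, the gene higher than in HBC2, was not called there without cells of high doublet score (1.14 and 0.63) or without mouse 1 or 2 (0.98 and 0.87). Of 7 genes of connective tissue and vessels 1 passed the filter, Dcn, at 5.08, 3.89, 2.58 and 2.51, which was higher than INP and HBC1 by 5.74 (SE 0.32) and 1.13 (SE 0.22) and lower than HBC2 by −1.32 (SE 0.18). The call of Dcn over HBC1 was lost without cells of high doublet score (0.55), in the 153 cells (0.26) and without mouse 2 (0.99). Against HBC2 Dcn was at −2.03 and −2.15 in the first 2 of these settings and at −0.82, not called, with cells thinned to 5000 UMIs. Of 11 immune and blood genes 1 passed the filter and was not called, and their sum was 0.113, 5.47, 0.414 and 0.452, with mouse 2 apart. Mouse 2 also had the highest sum of these genes in INP, HBC1 and HBC2. The 12 genes of the dissociation response summed to 48.8 ± 7.38 in GBC, 34.7 ± 2.68 in INP, 172 ± 36.6 in HBC1 and 138 ± 13.9 in HBC2, and 10 of the 12 were lower and 1 higher in GBC than in HBC1 and in HBC2, with medians of −2.74 and −2.53, while 6 were higher and 1 lower than in INP. Fos had a mean of 6.51 in GBC and 47.9 in HBC1. The part of this response in the other differences was not tested.

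The 10 genes named for the size of their fitted difference over HBC1 were Cenpf, Neurod1, Pclaf, Cdca8, Nusap1, Cenpe, Ccnb1, Foxi1, Ascl3 and Pbk. None of these had a UMI in HBC1, so that their order depends on how the fit treats a count of 0 and they cannot be ranked against genes with 1 UMI there, such as Mki67 and Mfng. Against the floor of 3 counts over the group GBC were at least 54.3-fold (Ascl3) to 199-fold (Cenpf) higher. Of the 10, 4 belong to the G2 and mitosis list, namely Cenpf, Nusap1, Cenpe and Ccnb1. Over HBC2 the 10 were Cldn5, Neurod1, Fabp7, Mfng, Ccnb1, Ube2c, Atp6v1g3, Plk1, Pclaf and Kif11. Cldn5, a tight junction protein, had no UMI in HBC2 and was found in 14 GBC, with 66.1% of its UMIs in 5 cells, and Fabp7 had 2 UMIs in HBC2 and was found in 11 GBC, with 88.1% in 5 cells. In the 153 cells neither passed the filter on low counts, and Fabp7 did not without cells of high doublet score. Lower than in HBC1 were Trim29, Ccl20, Trp63, Abca4, Dlk2, Tns4, Lamb3, Dsc3, Srd5a2 and Krt5, among them the laminin chain Lamb3 and the desmosomal cadherin Dsc3. Trim29, Ccl20, Dlk2 and Tns4 had no UMI in GBC, which were at least 86.9-fold (Tns4) to 210.0-fold (Trim29) lower. Lower than in HBC2 were Reg3g, Pon1, Trim29, Muc16, Tns4, Muc2, AU021092, Defb1, Anxa8 and Trp63, among them the antimicrobial lectin Reg3g with a mean of 0.0463 against 48.7, 5.51, 49.0 and 48.4 in the HBC2 of mice 1 to 4, and the mucins Muc16 and Muc2.

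Over INP the 10 largest in the fit were Sparc, Mgp, Wfdc18, Igfbp4, Fabp7, Rgs5, Hmmr, Upp1, Ccnd1 and Kif11. Sparc, Mgp, Igfbp4 and Fabp7 had no UMI in INP, and against the floor of 3 counts over the group GBC were at least 199-fold, 311-fold, 116-fold and 85.6-fold higher. Several of the 10 rested on few cells. Wfdc18 had levels of 1.26, 14.9, 18.6 and 157 in mice 1 to 4, and 88.1% of its UMIs came from 1 cell of mouse 4. Its level in sustentacular cells was 268. Mgp, the matrix Gla protein of connective tissue, had a level of 8.74 in mouse 1 and at most 0.159 in the others, with 52.1% of its UMIs in 1 cell, and Fabp7, a fatty acid-binding protein of glia, was found in 11 GBC. Sparc, a matrix protein, was found in 33 cells. Rgs5 was found in 36 cells, with 57.1% of its UMIs in 5 of them, and had a mean of 3.89 in GBC and 217 in sustentacular cells. Upp1 was found in 47 cells and had a mean of 1.36 in GBC and 5.21 in Mv1 cells. In the 153 cells of both clusterings the differences of Sparc and Mgp over INP were 3.00 and 1.85 and neither was called, and that of Igfbp4, a binding protein of insulin-like growth factors, went from 9.29 (SE 1.46) to 5.23 (SE 1.93) and kept its call. Hmmr and Kif11, which act on the mitotic spindle, and Ccnd1 were found in 86, 88 and 124 GBC, with at most 4.56% of the UMIs in 1 cell. Hmmr had 335 UMIs in GBC and 1 in INP, a ratio of 331 with a counting interval of 59.0 to 13106.

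**Figure D4:**
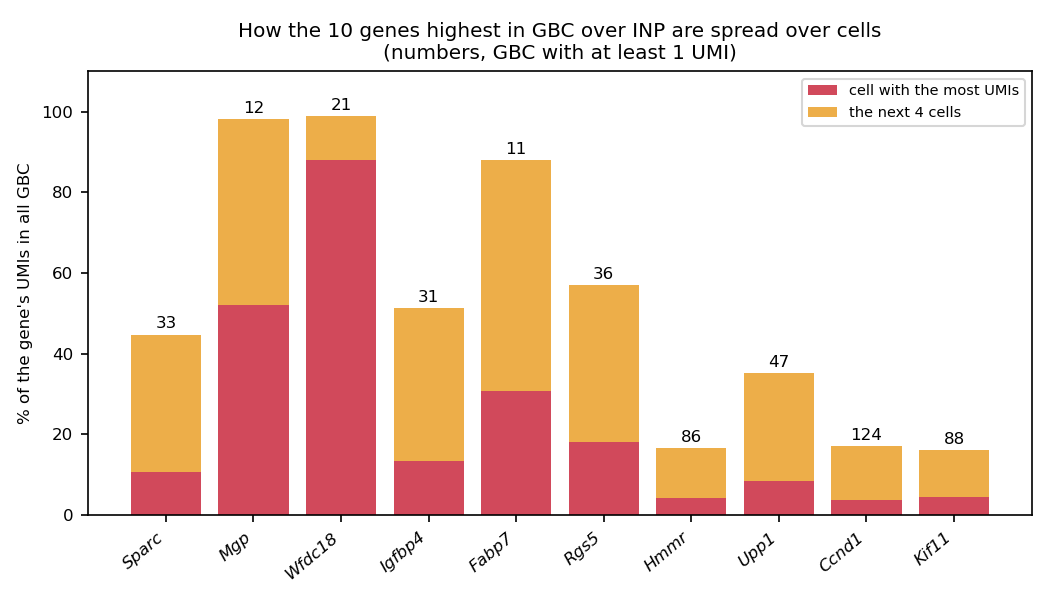
Percent of a gene's UMIs in the 202 GBC (vertical axis) that came from the cell with the most UMIs (red) and from the next 4 cells (yellow), for the 10 genes with the largest fitted log2 difference over INP. The number on a bar is the count of GBC with at least 1 UMI, which runs from 11 for Fabp7 to 124 for Ccnd1.

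Lower in GBC than in INP were Sult6b1, Gm16579, Crabp1, Mss51, Arl14epl, Tex15, Myt1l, Gm10631, Grp and Nrp2. Crabp1, a binding protein of retinoic acid, had levels of 0.622, 0.207, 0.255 and 0.203 in GBC and a mean of 41.9 ± 3.40 in INP, a log2 difference of −6.96 (SE 0.43). Myt1l, a neuronal zinc finger factor, had means of 0.0943 and 8.03 (−6.09, SE 0.29), and the peptide gene Grp means of 0.194 and 9.31 (−5.48, SE 0.25). Nrp2, a receptor for axon guidance cues, had means of 0.123 and 3.19 (−5.40, SE 0.46). For each of these genes every mouse was lower in GBC.

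Cells under the GBC label differed in the marker genes detected in them. The 156 cells at 5000 UMIs were divided, after the values had been seen, into those with a UMI of Neurog1 or Neurod1, then those with at least 2 UMIs of Foxi1 and Ascl3, which encode factors of ionocyte-like microvillar cells, then those with at least 2 UMIs of Col1a1, Col1a2 and Lum, genes of connective tissue. The numbers were 53 (29, 6, 4 and 14 in mice 1 to 4), 38 (14, 7, 3 and 14) and 6 (4, 1, 1 and 0), and 59 cells (22, 4, 10 and 23) met no rule. A cell that met no rule may hold these transcripts without a UMI of them at this depth. The rules met cells in all 4 mice except that no mouse 4 cell met the collagen rule. Since genes chose the subsets, the values that follow are a description without a test. Of the 39 cells that met the Foxi1 and Ascl3 rule, 1 also had Neurog1 or Neurod1. That rule was met by 0.930% of INP, 1.02% of HBC2, 0.0201% of mOSN and 0 of 93 HBC1 cells, and by 3 of 26 Mv1 cells (11.5%), 2.44% of 205 sustentacular cells and 99.4% of Mv2 cells.

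Cells with Neurog1 or Neurod1 and cells that met no rule were mostly in cycle, with at least 10 UMIs of G2 and mitosis genes in 52 of 53 and 43 of 59. The same held for 2 of the 38 cells with Foxi1 or Ascl3. Kit was at 0.226 UMIs per 10000 in the cells with Neurog1 or Neurod1, at 1.15 in those that met no rule and at 2.47 in those with Foxi1 or Ascl3, where it was 1.29, 2.86, 5.33 and 2.86 in mice 1 to 4. A Kit UMI was found in 6 of the 53 cells, 18 of the 59 and 19 of the 38. Ccnd1 was at 5.02, 10.9 and 2.89 and Hes6 at 15.3, 16.3 and 8.21 in the same order. Sox2 was at 0.830, 1.59 and 1.16, and Lgr5 at 0.0377, 0.373 and 0.684. Lhx2 was at 14.4 in the cells with Neurog1 or Neurod1, 0.203 in those that met no rule and 30.7 in INP, and Mfng was at 7.17, 0.780 and 2.50 in these. The cells with Neurog1 or Neurod1 thus stood nearest to INP for Lhx2.

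Foxi1 and Ascl3 belong to a list of 10 genes of non-neuronal fates, of which 5 were tested in the summed GBC. Of these 4 were higher than in INP, 2 than in HBC1 and 3 than in HBC2, with 1 lower than in HBC2 and medians of 3.94, 1.55 and 1.14. Among all genes tested the shares higher were 17.5%, 17.4% and 14%, and 19.1% were lower than in HBC2. Without cells of high doublet score Ascl3 did not pass the filter on low counts, 4 were tested, and 2 were higher than in INP and 1 than in HBC2, with medians of 3.28, 0.59 and 0.14, and in the 153 cells the median over HBC1 was 0.38. Foxi1 (chromosome 11, 34204338 to 34208089) had levels of 1.38, 2.98, 1.72 and 1.29 in the GBC of mice 1 to 4, and Ascl3 (chromosome 7, 109727465 to 109731726) of 1.04, 4.06, 1.18 and 1.70. Mouse 2 was the highest for both.

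The 38 cells with Foxi1 or Ascl3 shared part of the genes of Mv2 cells and part of those of Mv1 cells. By the rule itself Foxi1 was at 9.21 and Ascl3 at 10.5, against 7.24 and 19.4 in Mv2. Genes outside the rule were divided: Cftr, the chloride channel of ionocytes, was at 2.00 against 7.03 in Mv2, while Sox9, a transcription factor of the gland list, was at 4.21 against 0.0840, and Cdkn1c at 9.79 against 0.648. In the summed counts Sox9 had means of 10.3 in Mv1, 5.83 in sustentacular cells and 2.80 in HBC1, and Cdkn1c of 1.22, 0.332 and 0.520. Upp1 was at 5.95 in the 38 cells, with a UMI in 26, and had summed means of 5.21 in Mv1 and 1.08 in Mv2. Trpm5, Pou2f3 and Gfi1b had summed means of 6.01, 1.48 and 1.19 in Mv1. They were found in 6, 4 and 0 of the 38 cells. Of these 38 cells, 31 were GBC in both clusterings and 19 (50.0%) had a doublet score among the highest 4%, against 2 of 53 cells with Neurog1 or Neurod1 and 8 of 59 that met no rule. They also held Dcn at 12.2. The part of droplets with 2 cells in this subset was not tested. The 6 cells with collagen genes had no UMI of Kit, Hes6 or Sox2 and none of them was GBC in the preliminary clustering.

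**Figure D5:**
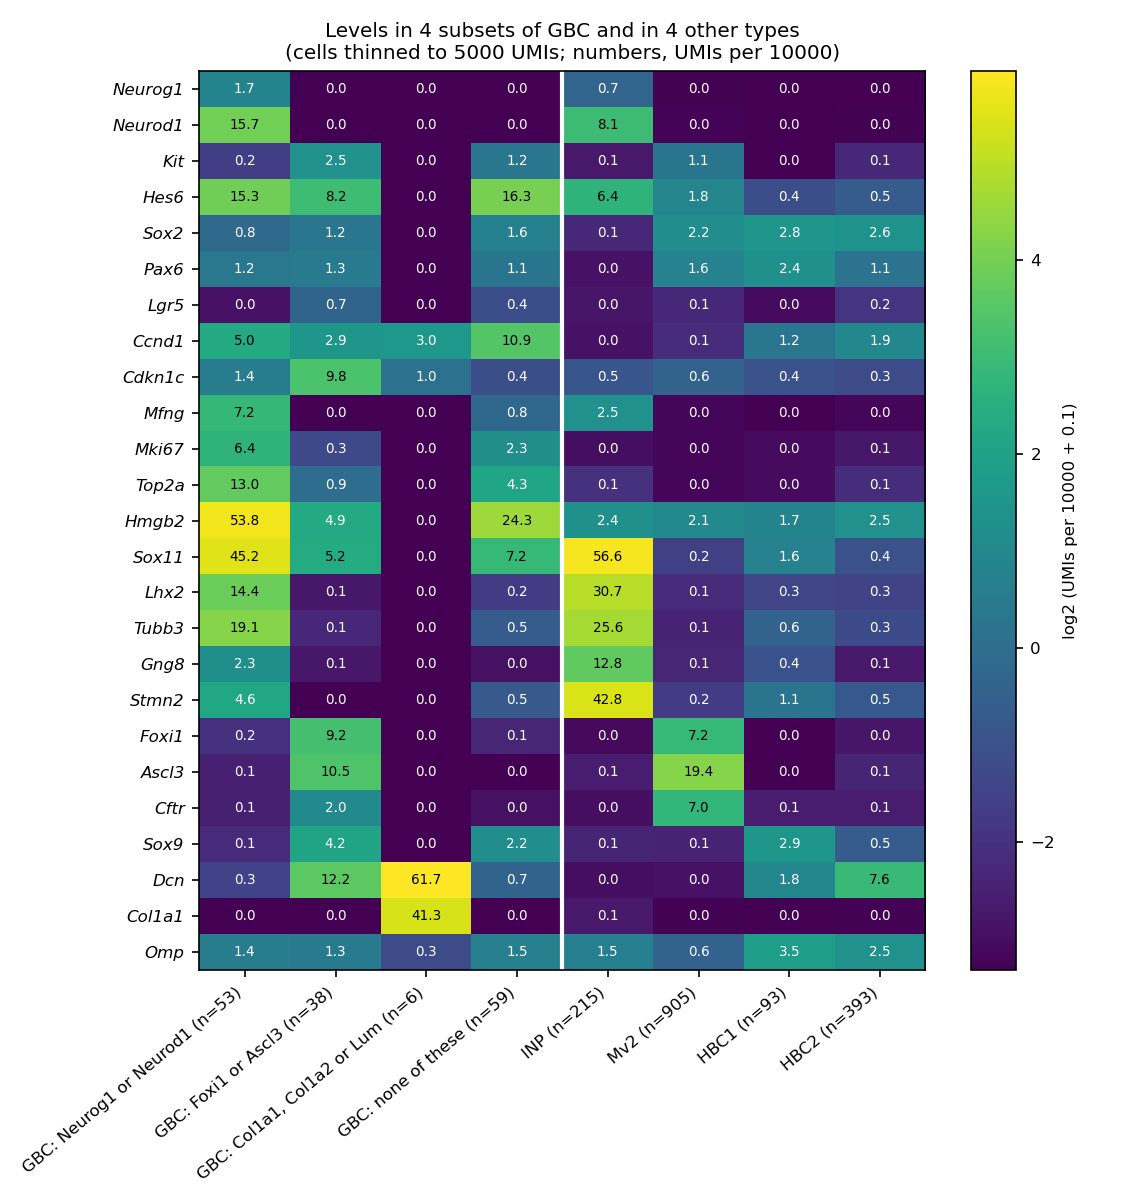
Levels (colour, log2 of UMIs per 10000 plus 0.1, and printed as UMIs per 10000) of 25 genes in 4 subsets of the 156 GBC, left of the white line, and in INP, Mv2, HBC1 and HBC2 cells, all thinned to 5000 UMIs. Mki67, Top2a and Hmgb2 are highest in the first column and next in the fourth, Foxi1, Ascl3 and Kit are high in the second, and Dcn and Col1a1 in the third, which holds 6 cells.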

How the data were processed

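The authors aligned reads to GRCm38 with Cell Ranger 6.0.1 and deposited UMI counts per gene and cell, with the percent of mitochondrial counts per cell and 2 sets of cluster labels in a table of cells. The deposited counts hold 55511 genes. Some genes are not reported here. A second table with all cells merged was not used here, and 0 columns of per-sample values lacked a sample. Here counts were summed per mouse and cell type (a sum needed 5 cells) and GBC, INP, HBC1 and HBC2 were fitted together in edgeR 4.0.16 (R 4.3.3) with its filter on low counts, TMM scaling and the mouse as a block, because all sums of a mouse come from 1 animal and 1 library. A call needed a Benjamini-Hochberg adjusted p under 0.05 and a log2 difference of at least 1. The libraries of 4 mice aged 8 weeks held 23157467 to 32382702 UMIs. Genes named for their size are the 10 with the largest called difference in each direction that had a mean of at least 1 UMI per 10000 in 1 of the types and the same direction in all 4 mice. List members with a high level in GBC were taken first. Some with a low level there, such as Krt5, Trp63, Dll1 and Dll4, are named as well. The cells, gene lists and tests were chosen with earlier results of these data known. DESeq2 1.42.0 and the other alternatives are given with the closing values. Scrublet (scanpy 1.11.5) called 0.0176 to 0.433% of barcodes per library, too few to rely on. The deposited tables hold all 21809 barcodes of the filtered matrices, and the study's methods name a removal of multiplets only at a later step, among mature neurons. Therefore barcodes with the highest 4% of scores were left out as an alternative. On simulated data for 7963 genes, 4-fold changes were called in 94% (against INP), 95% (HBC1) and 96% (HBC2) of 100 genes and 2-fold changes in 35%, 33% and 47%. A true 2-fold change lies at the size needed for a call, which limits its rate. The simulation gave all genes the same spread, not estimated from these data, and changed only genes above a set level. Its rates do not cover low genes or genes held by few cells. Intervals and limits of a count of 0 (3 counts) cover counting error only. Motifs were searched in RefSeq promoter windows on GRCm38.p6, and gene positions are from GENCODE M21 on GRCm38.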

Additional observations from a re-analysis of the deposited data

Results flagged for a closer look

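Of 139 groups of 4 GBC values searched, 14 had 1 mouse far from the other 3 by Dixon's ratio, where chance gives about 1 in 20. The share of GBC with Kit at 5000 UMIs was 37.3% in mouse 4 and 22.2 to 23.2% in the others. In mouse 2 the summed gland genes were at 8.20 UMIs per 10000 (1.39 to 1.74 in the others) and the immune and blood genes at 5.47 (0.113 to 0.452). For the immune and blood genes mouse 2 was also the highest in INP (2.13), HBC1 (1.73), HBC2 (1.65) and mOSN (1.52). It was not the highest in sustentacular or Mv2 cells. The share with the collagen rule was 0% in mouse 4 and 5.56 to 5.80% in the others. Single genes with 1 mouse apart were Crabp1 at 0.622 in mouse 1, Krt14 at 0.265 and Krt5 at 0.172 in mouse 4, Lhx2 at 2.78 in mouse 4 (5.72 to 6.21 in the others), Lyz2 at 4.47 in mouse 2 (0.0636 to 0.132), Mgp at 8.74 in mouse 1, Nop58 at 2.17 in mouse 1 (2.64 to 2.67), Nrp2 at 0.373 in mouse 2, Upp1 at 1.66 in mouse 2 (1.23 to 1.27) and Wfdc18 at 157 in mouse 4.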

How the results depend on the processing

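The counts of called genes stayed within 1.5 times for most alternatives. They did not with no filter on low counts (3929 against INP and 4424 against HBC2, of 24422 genes tested), with cells thinned to 5000 UMIs (1577, 1817 and 1813 against INP, HBC1 and HBC2, of 5558) or with HBC1 and GBC alone in the fit (2008 of 5251), and in the thinned and 2-type fits fewer genes were tested. Without the mouse block 2540, 3138 and 2811 genes were called, and the block changed no call among 298 named differences. Over all alternatives these 298 gave 3824 values, of which 3741 kept their direction and side of the threshold, 47 lost the call, 35 gained it and 1 turned: Krt5 against INP, which was not called, was −3.51 in the GBC of both clusterings, a setting chosen after seeing the data. The share of GBC with Kit was 40.7% with all UMIs and 15.0% where 2 UMIs were asked for, with Hes6 66.6% for 2 UMIs, with Mki67 37.9% at 3000 UMIs, 34.9% for 2 UMIs and 52.9% in the cells of both clusterings, and with Neurog1 22.4% with all UMIs, 9.16% at 3000 UMIs, 4.18% for 2 UMIs and 23.3% in both clusterings. The summed G2 and mitosis genes were at 73.0 as a mean over cells, 110.3 without high doublet scores and 104.5 in both clusterings. The cause of these shifts was not tested. Mice 2 and 3 gave 29 and 24 GBC, which limits the depth of their sums, and low genes such as Lgr5 were tested only with no filter on low counts.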

Other observations

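Outside the lists, 3 groups of genes were summed in GBC as values without a test. Mitochondrial genes came to 119.5 ± 19.1 UMIs per 10000 (SD, n = 4 mice) in GBC, 106.8 in INP, 227 in HBC1 and 224 in HBC2. Ribosomal protein genes came to 1836 ± 118 UMIs per 10000 (SD, n = 4) in GBC, 1201 ± 95.9 in INP, 1693 in HBC1, 1830 in HBC2 and 491 in mOSN. Olfactory and trace amine-associated receptor genes came to 1.01, 0.414, 3.15 and 1.47 in the GBC of mice 1 to 4 against 91.3 ± 1.46 in mOSN, and 1358 of 1426 had no UMI in any GBC. Of the 207 barcodes that the preliminary clustering called GBC, 49 (8, 16, 15 and 10 in mice 1 to 4) were not retained, and their median was 929 UMIs against 11938 in the 153 that were.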
